A study of Mus musculus with 64 samples.

Results

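The 6 genes described here form the loop between the activators of the circadian clock and its nuclear receptors: *Clock*, *Arntl* and *Npas2*, and the REV-ERB and ROR genes *Nr1d1*, *Nr1d2* and *Rora*. They were chosen by symbol, through Ensembl identifiers, from the 52636 genes of the count table, and all 6 were among the 20249 genes that passed the filter on low counts. RNA came from 2 fat depots, brown (BAT) and epididymal white (eWAT), of male mice 2 to 4 mo old, kept on chow with lights on from 6am to 6pm, where zeitgeber time (ZT) 0 is lights on. All mice came from the NamptTM1Jtree line, with *Nampt* exon 3 between loxP sites, crossed with Adiponectin-Cre mice. Those labelled wildtype (WT) were Cre-negative littermates, and the fat-specific knockouts (FANKO) carried the Cre, whose promoter is active in adipocytes, so that other cells of the depot keep *Nampt*. The 64 samples fall into 16 groups of 4, by depot, genotype and hour of collection (ZT 6, 10, 18 or 22). The labels number the replicates but name no animals, so p values measure the spread between these samples.

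CLOCK and BMAL1, the product of *Arntl*, bind DNA as a pair at E-box sequences and switch on genes of the clock, and NPAS2 can take the place of CLOCK. Among the genes they activate are *Nr1d1* and *Nr1d2*, which encode the repressors REV-ERBα and REV-ERBβ. These repressors and the activator RORα, the product of *Rora*, compete for response elements (ROREs) in genes such as *Arntl*, which closes the loop. In adipose tissue the clock times lipid handling and, in BAT, heat production.

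In the GENCODE M21 annotation of GRCm38, *Clock* (ENSMUSG00000029238) lies at chr5:76209868-76304792 on the minus strand and *Arntl* (ENSMUSG00000055116) at chr7:113207465-113314126 on the plus strand. *Npas2* (ENSMUSG00000026077) lies at chr1:39193731-39363236 and *Rora* (ENSMUSG00000032238) at chr9:68653786-69388246, both on the plus strand. *Nr1d1* (ENSMUSG00000020889) lies at chr11:98767932-98775333 and *Nr1d2* (ENSMUSG00000021775) at chr14:18204054-18239127, both on the minus strand.

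Stretches near the starts of *Arntl*, *Nr1d1* and *Nr1d2* are shown first, because *Arntl* and the REV-ERBs were high at opposite times of day in the data. Binding of the proteins to these stretches was not measured. Of the 6 genes, all matched at least 1 of the 32851 RefSeq promoter windows (GRCm38.p6, 250 bases before to 50 after a start). Below are 2 stretches at the *Arntl* starts, read on the plus strand, with an AT-rich run and the core of a nuclear receptor site in capitals. The first lies at chr7:113207494-113207518 and the second at chr7:113207530-113207554. They are followed by the 250 bases before the start of *Nr1d1* (chr11:98775378-98775627, minus strand), with an E-box variant in capitals, and before that of *Nr1d2* (chr14:18239107-18239356, minus strand), with a receptor core in capitals.
Arntl, first element: tggtcggAAAGTAGGTTAgtggtgc
Arntl, second element: aaggcagAAAGTAGGTCAgggacgg
Nr1d1: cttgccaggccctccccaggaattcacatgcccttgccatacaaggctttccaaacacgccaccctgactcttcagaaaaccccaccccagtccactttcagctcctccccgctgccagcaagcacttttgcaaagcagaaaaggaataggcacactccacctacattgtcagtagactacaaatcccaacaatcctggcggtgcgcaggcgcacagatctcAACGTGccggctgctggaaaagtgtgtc
Nr1d2: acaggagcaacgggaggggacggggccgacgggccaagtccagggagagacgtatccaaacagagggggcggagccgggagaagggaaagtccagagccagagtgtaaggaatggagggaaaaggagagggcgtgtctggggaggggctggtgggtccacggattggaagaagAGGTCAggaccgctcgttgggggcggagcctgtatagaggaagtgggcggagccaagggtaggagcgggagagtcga
Both strands of the whole windows were searched for the E-box CACGTG and its variant CACGTT, the receptor core AGGTCA and its variant AGGTTA, the D-box TTATGTAA, and the RORE consensus, which contains AGGTCA in some of its forms. The RORE was found at *Arntl* alone, in its second element, and in 0.773% of all windows. CACGTT lay 28 bases before the *Nr1d1* start, read on the opposite strand as AACGTG, and was present in 4.685% of all windows. AGGTCA was found at *Clock*, *Arntl* and *Nr1d2* and in 16.3% of all windows, and AGGTTA at *Arntl* and in 8.49%. CACGTG, in 7.15% of windows, and TTATGTAA, in 0.938%, were not among the letters of any window of these genes, and no searched motif was in those of *Npas2* or *Rora*.

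A sample held between 6117343 and 30544847 counts. *Nampt* itself lay between 479 and 1454 CPM (counts scaled to a common library size) in WT BAT and between 109 and 186 in FANKO BAT, without overlap, but between 112 and 310 in WT eWAT and between 101 and 131 in FANKO eWAT. The count covers the whole gene, including exons outside the deleted one. *Ucp1* of brown adipocytes had a median of 4305 CPM in WT BAT and 0.213 in WT eWAT, whereas leptin (*Lep*) had 36.4 and 1119, so each depot carried its defining marker. The other cells of BAT moved with genotype: the summed level of 7 of 7 macrophage markers was 65.9 to 128 CPM in WT and 542 to 1438 in FANKO BAT, that of 5 of 5 lymphocyte markers 1.14 to 4.49 and 16.3 to 68.7, and that of 6 of 6 brown adipocyte markers 4440 to 10199 and 1276 to 3375. In BAT the sums of 6 general adipocyte markers (10424 to 13569 CPM in WT and 4794 to 8358 in FANKO) did not overlap. Nor did those of 6 progenitor and stromal markers (386 to 1137 and 1168 to 2139). In eWAT the macrophage sums were 384 to 556 and 377 to 760, and those of the general adipocyte markers 10674 to 17958 and 11838 to 17258, which overlap. The eWAT sums of 4 white adipocyte markers (1510 to 3365 in WT and 735 to 1356 in FANKO), the progenitor and stromal markers (2255 to 3837 and 1331 to 1941) and the brown adipocyte markers (10.6 to 27.5 and 39.0 to 83.2) did not overlap. The part of these lists in the results for either depot was not tested, and fewer cells of a type and less RNA per cell cannot be told apart in bulk tissue. For 3 libraries the loop genes lay far from their group: WT BAT ZT 18 replicate 4, WT eWAT ZT 18 replicate 4 and FANKO BAT ZT 6 replicate 1, picked after their values were seen. In the first and the third, 6 skeletal muscle markers summed to 421 and 179 CPM, against medians of 33.5 in WT BAT and 4.42 in FANKO BAT, where another library reached 376. The first also had the lowest progenitor and stromal (386) and lymphocyte (1.14) sums of WT BAT. The second had the lowest progenitor and stromal sum (2255) and the highest sum of 4 mesothelial markers (397) of WT eWAT. The third had the lowest general adipocyte sum of FANKO BAT (4794), with 2093 for progenitor and stromal and 63.3 for lymphocyte markers. Some tests that rest on these 3 libraries are given with and without them. The fitted amplitudes, peaks and shifts are given with all samples only.

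In WT tissue, *Nr1d2* and *Clock* had the highest levels per length of the 6 genes and *Npas2* the lowest. In RPKM, which is CPM divided by the exonic length in kilobases, the medians over the 16 WT BAT samples were 14.3 for *Nr1d2* (range 2.55 to 34.8), 11.8 for *Clock* (8.42 to 17.1), 7.28 for *Nr1d1* (1.10 to 23.3), 4.62 for *Rora* (3.81 to 8.28), 2.68 for *Arntl* (0.150 to 7.75) and 0.188 for *Npas2* (0 to 0.990). The order was the same in WT eWAT, where the medians ran from 12.7 RPKM for *Nr1d2* to 0.474 for *Npas2*, and neighbours in the order overlapped over the day in both depots. *Npas2* is therefore a low-count gene: its 16 WT BAT samples held 0 to 55 counts. The *Nr1d1* exons share 263 bases with *Thra* on the other strand, 8.55% of their length, and the strand setting of the counting is not given in the sources used here.

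Rhythms were tested with a cosine of 24 h against a false discovery rate (FDR) of 0.01, adjusted over all 20249 genes. In WT BAT 5 of the 6 genes were rhythmic, where 13.9% of all genes were, and in WT eWAT 6 of 6, where 9.38% were. The exception was *Rora* in BAT (edgeR adjusted p = 0.0398), with time-point means of only 55.0 to 75.6 CPM. In eWAT its call was lost without replicate 1, 2 or 3 (adjusted p = 0.0105 to 0.0140). The fitted peaks followed each other around the day. In WT eWAT *Arntl* peaked at ZT 22.8 (95% CI 21.9 to 23.7), *Nr1d1* 8.71 ± 0.51 h (SE) later and *Nr1d2* 11.3 ± 0.59 h later. *Arntl* in WT eWAT departed from a cosine in the main fit, as given below, so its peak and these gaps are approximate. In WT BAT *Nr1d1* followed *Arntl* by 7.61 ± 0.55 h and *Nr1d2* followed it by 11.99 ± 0.56 h. Thus the REV-ERBs were high in the light phase, when *Arntl* was low, as the plot of all samples shows.

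**Figure D1:**
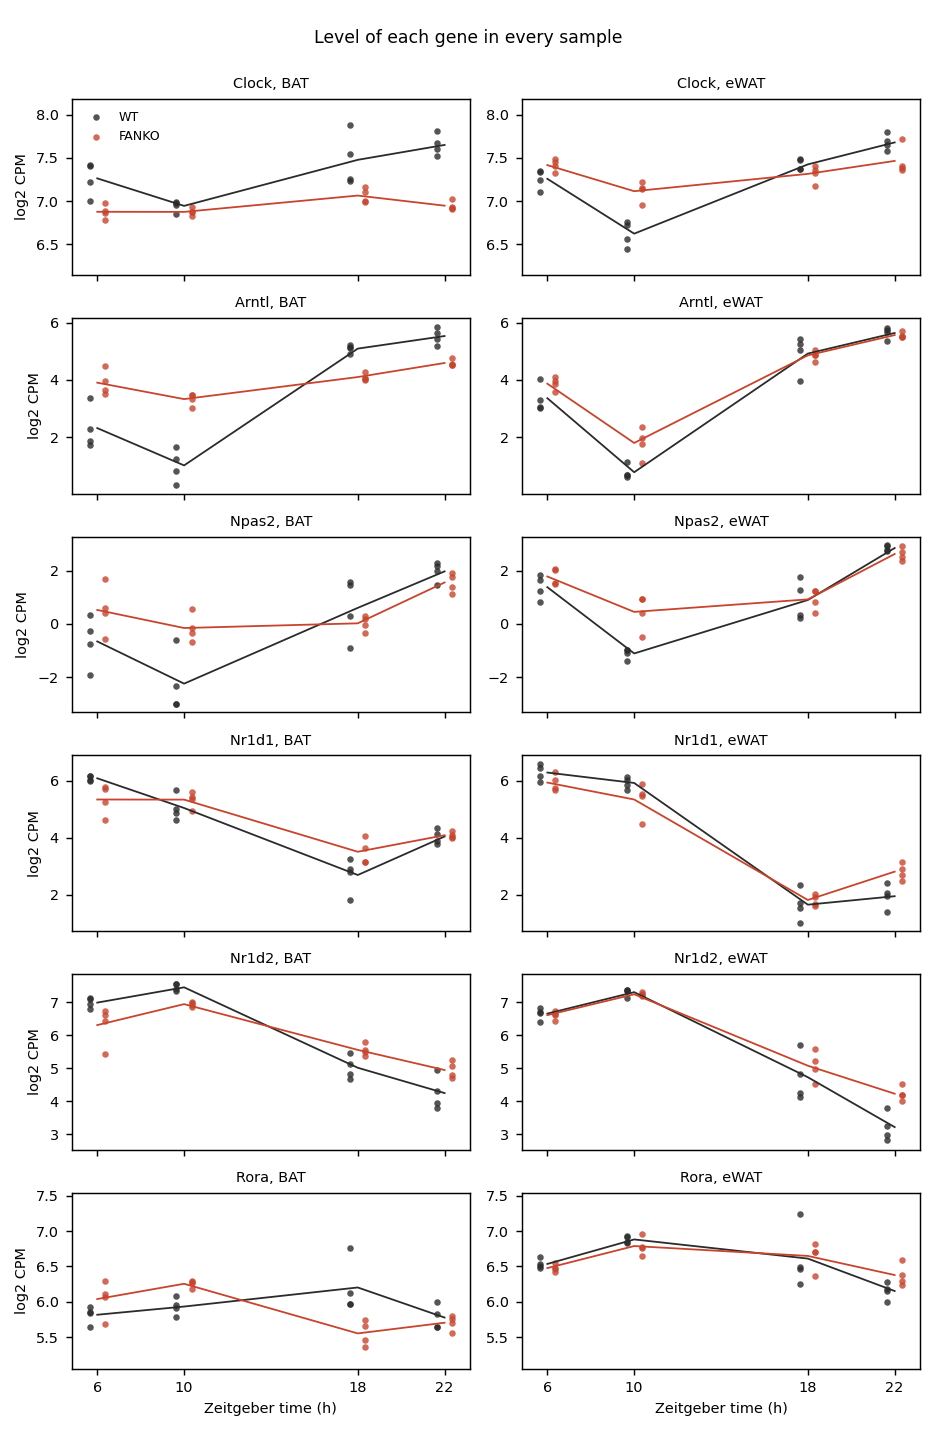
Level of each gene (log2 CPM, vertical axis) in every sample by zeitgeber time in hours (horizontal axis), for BAT on the left and eWAT on the right. Points are samples, 4 per group, set slightly to either side of their time, and lines join the means of WT (black) and FANKO (red). In BAT the red lines for *Arntl* and *Clock* are flatter than the black ones, whereas in eWAT the *Arntl* lines run close together except at ZT 10.

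The depots of WT mice differed in level for 4 of the 6 genes, against 73.7% of all genes (32.7% higher in BAT and 41.1% lower). *Npas2* and *Rora* were lower in BAT than in eWAT, by a log2 difference in mean level of -1.04 ± 0.25 (SE, adjusted p = 0.000155) and -0.61 ± 0.07 (adjusted p = 1.34e-11). *Nr1d1* and *Nr1d2* were higher in BAT, by 0.53 ± 0.13 (adjusted p = 0.000240) and 0.41 ± 0.12 (adjusted p = 0.00208). The *Nr1d1* call was lost without replicate 3 (adjusted p = 0.0386), and that of *Nr1d2* without replicate 2 or 3 (adjusted p = 0.0335 and 0.0279). With library size alone the median of all genes lay at -0.86, and both were lower in BAT instead, *Nr1d1* at -0.23 (adjusted p = 0.0887) and *Nr1d2* at -0.34 (adjusted p = 0.0141). The rhythm itself differed between depots for 1 gene, *Nr1d1* (adjusted p = 1.43e-08), against 6.98% of all genes. *Nr1d1* peaked at ZT 5.11 (95% CI 4.34 to 5.89) in WT BAT and at ZT 7.49 (6.89 to 8.09) in WT eWAT. At ZT 10 it lay at 24.6 to 50.4 CPM in BAT and at 50.3 to 69.8 in eWAT, and the highest BAT sample lay just above the lowest eWAT sample. At ZT 22 it lay at 13.6 to 20.2 CPM in BAT and at 2.48 to 5.13 in eWAT, without overlap. Over the day it therefore swung 3.49 ± 0.32 log2 units from peak to trough in WT BAT and 5.02 ± 0.22 in WT eWAT.

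*Arntl*, which encodes BMAL1, the partner of CLOCK and of NPAS2, had a much narrower daily range in FANKO BAT than in WT BAT. At ZT 10, its low point, the 4 WT BAT samples held 3.03, 2.22, 1.65 and 1.13 CPM and the FANKO samples 10.04, 11.04, 11.11 and 7.899. At ZT 22, its high point, the WT samples held 58.3, 49.4, 43.3 and 36.7 CPM and the FANKO samples 22.8, 27.4, 23.2 and 22.9. All FANKO samples were thus above all WT samples at the low point and below them at the high point. The log2 differences, FANKO minus WT, were 1.503 ± 0.26 (ZT 6), 2.24 ± 0.31 (ZT 10), -1.005 ± 0.23 (ZT 18) and -0.96 ± 0.23 (ZT 22). All 4 passed, with adjusted p of 2.03e-06, 1.59e-08, 0.000220 and 0.000344. Scaled by library size alone, which moves the median difference of all genes in BAT to between 0.57 and 0.60 at the 4 times, the differences at ZT 18 and ZT 22 did not pass (adjusted p = 0.177 and 0.200).

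*Clock*, the DNA-binding partner of BMAL1, behaved differently, with lower levels in FANKO BAT at 3 of the 4 times under TMM scaling, a direction that turned with library size alone at ZT 6 and ZT 18. The WT samples went from 127, 124, 116 and 126 CPM at ZT 10 to 195, 224, 183 and 203 at ZT 22. The FANKO samples were at 122, 117, 113 and 117 CPM at ZT 10 and at 130, 121, 120 and 122 at ZT 22, so that 3 of the 4 FANKO samples at ZT 22 lay within the WT range of ZT 10. Differences passed at ZT 6 (log2 -0.39 ± 0.09, adjusted p = 0.000320), ZT 18 (-0.44 ± 0.09, adjusted p = 9.16e-05) and ZT 22 (-0.71 ± 0.09, adjusted p = 5.83e-09), but not at ZT 10 (-0.07 ± 0.09). *Clock* was also the only 1 of the 6 genes whose mean level over the day differed between genotypes in BAT (log2 -0.40 ± 0.05, adjusted p = 2.07e-10), in a comparison that called 67% of all genes (33.1% higher in FANKO and 33.9% lower). These values depend on the scaling: with library size alone the differences were 0.17, 0.51, 0.16 and -0.11 at the 4 times, where only ZT 10 passed (adjusted p = 0.000932), and that of the mean level was 0.18, with the median of all genes at 0.58. Relative to the median of all genes the mean level was lower by the same amount, -0.40, with TMM, RLE and library size alike. The calls at ZT 6 and ZT 18 were lost without replicate 2 (adjusted p = 0.0135) and without replicate 4 (adjusted p = 0.0199).

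*Npas2*, the relative of *Clock*, was higher in FANKO BAT at ZT 10, at very low counts. Its low point in WT BAT at ZT 10 rested on 0 to 5 counts per sample, at 0.0778, 0.528, 0 and 0 CPM, whereas the FANKO samples held 9 to 19 counts, at 0.667, 1.34, 0.787 and 0.4999 CPM. The fitted log2 difference there was 2.33 ± 0.72 (adjusted p = 0.00481), and leaving out replicate 1, 3 or 4 ended the call (adjusted p = 0.0149 to 0.0416). At ZT 22 the genotypes overlapped, with 2.63 to 4.75 CPM in WT and 2.09 to 3.67 in FANKO.

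*Nr1d1*, the REV-ERBα gene and a direct target of the activators, had lower values in FANKO BAT at ZT 6 and higher ones at ZT 18. At ZT 6 the WT samples held 64.2, 71.7, 71.6 and 63.7 CPM and the FANKO samples 24.6, 54.9, 37.9 and 51.8, without overlap, yet the difference missed the threshold (log2 -0.68 ± 0.23, adjusted p = 0.0110). At ZT 18 the WT samples held 3.37, 6.80, 7.28 and 9.44 CPM and the FANKO samples 16.6, 12.3, 8.76 and 8.81, which overlap. The difference there passed (0.82 ± 0.27, adjusted p = 0.00846), but not without replicate 1 (0.36, adjusted p = 0.262) or replicate 2 (adjusted p = 0.0398).

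*Nr1d2*, the REV-ERBβ gene, did not pass at any single time point in BAT. At ZT 10, its high point, the WT samples held 161, 168, 188 and 187 CPM and the FANKO samples 117, 128, 122 and 127, without overlap (log2 -0.51 ± 0.23, adjusted p = 0.0492). At ZT 22, its low point, they held 13.8, 19.9, 15.2 and 30.9 CPM in WT and 33.3, 27.8, 25.9 and 37.9 in FANKO, with 1 WT sample inside the FANKO range (0.61 ± 0.24, adjusted p = 0.0300).

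*Rora*, whose product activates from the same elements that the REV-ERBs repress, was lower in FANKO BAT at ZT 18 with TMM scaling. There the WT BAT samples held 69.3, 62.6, 62.2 and 108 CPM and the FANKO samples 43.7, 50.4, 53.3 and 40.8, without overlap. The difference passed (log2 -0.68 ± 0.14, adjusted p = 3.18e-05), and it also passed without the WT library at 108 CPM (adjusted p = 0.00262), whereas with library size alone it did not (adjusted p = 0.550). At ZT 10 the FANKO samples, at 72.6 to 78.0 CPM, all stood above the WT samples, at 54.9 to 67.5, but this difference missed the threshold (0.32 ± 0.14, adjusted p = 0.0469).

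Over the 4 time points of BAT, 10 of the 24 genotype differences passed. By time this was 2 of 6 genes (ZT 6), 2 (ZT 10), 4 (ZT 18) and 2 (ZT 22), when 48.2%, 45.7%, 44% and 45.3% of all genes passed, so that at 3 of the 4 times the share among the 6 genes was below that of all genes. Genes higher in FANKO numbered 1, 2, 1 and 0 of the 6, against 24.4%, 23.3%, 21.5% and 22.6% of all genes, and genes lower in FANKO 1, 0, 3 and 2, against 23.9%, 22.4%, 22.5% and 22.7%. With library size alone 3, 5, 2 and 2 of the 6 genes were higher and 0 were lower at any of the 4 times. That scaling also moves the median difference of all genes in BAT above 0. The share of all genes it called is not given, so these counts cannot be set against it. Samples of the genotypes did not overlap for 4, 3, 3 and 2 of the 6 genes, against 50.3%, 52.4%, 41.7% and 48.6% of all genes.

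**Figure D2:**
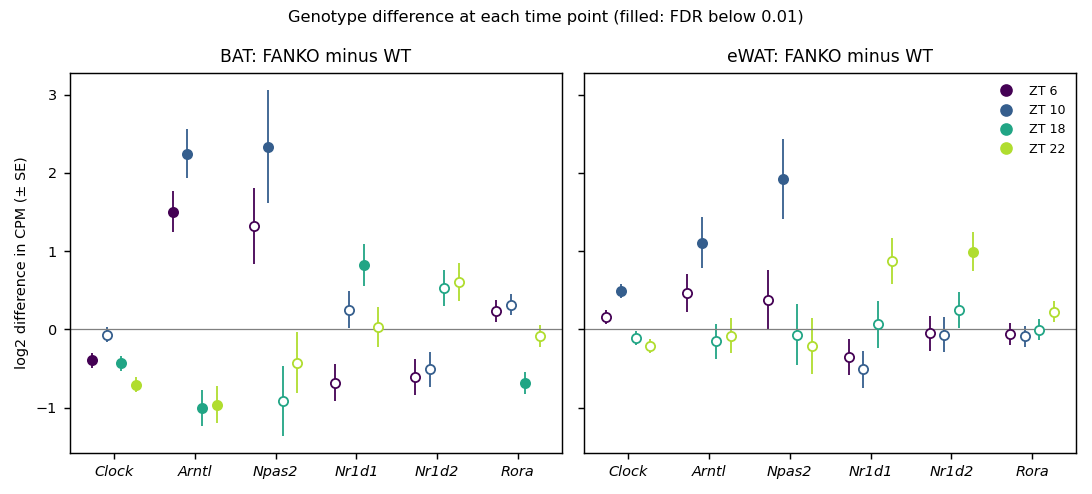
Log2 difference in level, FANKO minus WT, with its SE (vertical axis), for each gene (horizontal axis) at ZT 6, 10, 18 and 22, in BAT on the left and eWAT on the right. Filled points passed an FDR of 0.01. All points are from the fit with TMM scaling. *Arntl* in BAT lies above 0 at ZT 6 and ZT 10 and below 0 at ZT 18 and ZT 22, and *Clock* in BAT lies at or below 0 throughout. With library size alone, which is not drawn, *Clock* in BAT was above 0 at ZT 6, 10 and 18.

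The rhythm of the loop differed between genotypes in BAT for most of the 6 genes. The test compares the cosine of the 2 genotypes, amplitude and peak together, and it called 5 of the 6 genes in BAT against 2.76% of all genes: *Arntl* (adjusted p = 5.89e-07), *Rora* (0.00223), *Nr1d2* (0.00538), *Npas2* (0.00632) and *Clock* (0.00846). *Nr1d1* missed the threshold in edgeR (adjusted p = 0.0158) and passed in DESeq2 (adjusted p = 0.00799), which called all 6. Of these calls only that of *Arntl* held without each replicate number in turn, where 1 to 3 of the 6 genes passed, and without FANKO BAT ZT 6 replicate 1 only *Arntl* and *Rora* remained (*Clock* 0.0102, *Nr1d2* 0.0113, *Npas2* 0.0277). Without WT BAT ZT 18 replicate 4 all 5 passed, and with library size alone only *Arntl* did. Over all genes the test called 559 in the main fit, 821 with DESeq2 and 268 with library size alone. Without replicate 1, 2, 3 or 4 it called 192, 183, 277 and 403 of all genes. Without FANKO BAT ZT 6 replicate 1 it called 455, and without WT BAT ZT 18 replicate 4 it called 617.

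Peak-to-trough amplitudes of the fitted cosines fell in FANKO BAT to 29.8% of WT for *Arntl* on the log2 scale (4.57 ± 0.35 in WT and 1.36 ± 0.22 in FANKO, SE) and to 26.2% for *Clock* (0.72 ± 0.15 and 0.19 ± 0.06). *Npas2* had 53.6% of the WT amplitude, with a WT low point of 0 to 5 counts per sample. Its highest and lowest time-point means lay 4.23 log2 units apart in WT BAT and 1.72 in FANKO BAT. *Nr1d1*, whose rhythm difference had not passed in edgeR, had 53.7%, and *Nr1d2* had 62.4%, at 3.23 ± 0.21 in WT and 2.02 ± 0.25 in FANKO. *Rora* had 0.56 ± 0.23 in WT and 0.60 ± 0.11 in FANKO and a fitted peak at ZT 8.41 (95% CI 5.84 to 10.99) in FANKO BAT, and no peak is given for WT BAT, where its rhythm had not passed. In FANKO BAT 4 of the 6 genes were rhythmic (2.84% of all genes): *Npas2* (adjusted p = 0.00266), *Nr1d1* (2.76e-08), *Nr1d2* (3.67e-08) and *Rora* (0.00113). *Arntl* (0.0234) and *Clock* (0.392) did not pass. Without 1 replicate number the count was 2 or 3, and *Nr1d1* and *Nr1d2* were called each time.

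The times of the fitted peaks were compared where the rhythm passed in both genotypes. *Nr1d2* in BAT peaked at ZT 9.49 (95% CI 8.71 to 10.3) in WT and at ZT 10.5 (9.40 to 11.7) in FANKO, a shift of 1.05 h with an interval from -0.27 to 2.37. *Nr1d1* in BAT shifted by 1.68 h (-0.080 to 3.44) and *Npas2* by 1.96 h (0.082 to 3.84). In eWAT *Nr1d1* was earlier in FANKO by 0.99 h (interval of the shift -1.88 to -0.10), although its rhythm difference there did not pass in edgeR (adjusted p = 0.0544). The eWAT shifts of *Arntl*, *Npas2* and *Nr1d2* were 0.24 h (-0.94 to 1.42), 0.69 h (-0.14 to 1.51) and -0.16 h (-1.20 to 0.88). The intervals are not adjusted for the number of comparisons. With 4 time points the cosine leaves 1 degree of freedom, and the peaks hold only as far as the daily course is a cosine. *Arntl* in WT eWAT departed from it in the main fit, as given below.

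**Figure D3:**
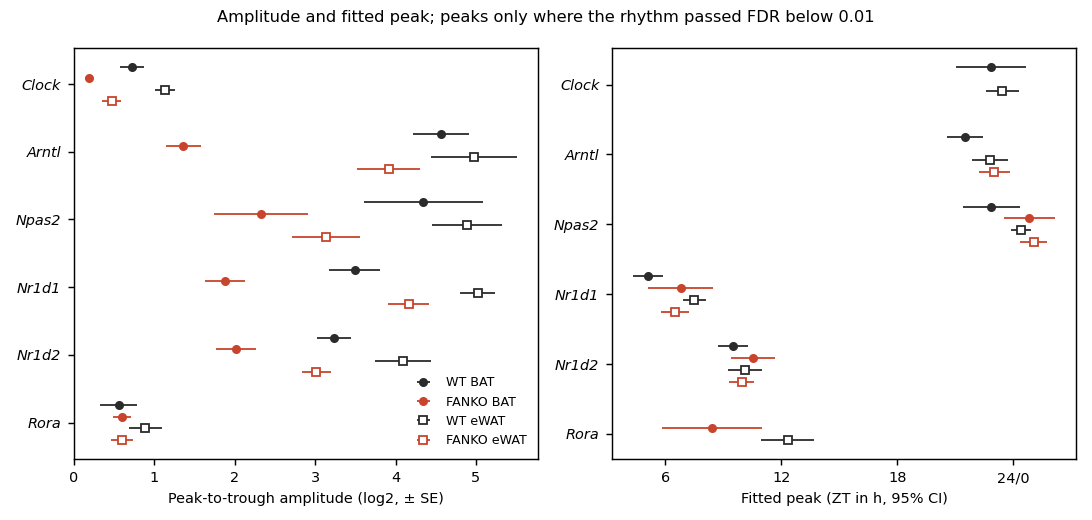
Peak-to-trough amplitude of the fitted cosine (log2, ± SE, left) and time of its peak (ZT in hours, 95% CI, right) for each gene in WT BAT and FANKO BAT (filled circles) and WT eWAT and FANKO eWAT (open squares), WT in black and FANKO in red. Peaks are drawn only for rhythms that passed. The *Arntl* amplitude is 1.36 in FANKO BAT and 3.91 in FANKO eWAT, and the peaks of the activators run from ZT 21.5 (*Arntl*, WT BAT) to ZT 1.06 (*Npas2*, FANKO eWAT), while those of *Nr1d1* and *Nr1d2* run from ZT 5.11 to ZT 10.5.

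In FANKO eWAT *Arntl* held 78.7% of its WT log2 amplitude, *Nr1d1* 82.9%, *Nr1d2* 73.7%, *Rora* 67.3% and *Npas2* 64.2%, and *Clock*, at 41.8%, was the 1 gene whose rhythm differed between genotypes (adjusted p = 0.00292, against 1.15% of all genes). These percentages come from the fitted cosine. The highest and lowest time-point means of *Npas2* lay 3.97 log2 units apart in WT eWAT and 2.18 in FANKO eWAT. Those of *Clock* lay 1.06 and 0.35 apart. The *Clock* call was lost without replicate 2 or 3 (adjusted p = 0.159 and 0.0737) and with library size alone (0.232). Over all genes the same test called 232 in the main fit, 31 and 54 without replicate 2 and 3, and 81 with library size alone. In FANKO eWAT *Arntl* (adjusted p = 9.30e-11), *Npas2* (4.68e-05), *Nr1d1* (8.74e-20) and *Nr1d2* (2.50e-14) were rhythmic, 4 of 6 against 6.77% of all genes, whereas *Clock* (0.0280) and *Rora* (0.0615) did not pass.

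The differences that passed in eWAT lay at the low points of the genes. *Clock* at ZT 10 was at 87.1, 94.2, 108 and 106 CPM in WT and at 124, 142, 149 and 141 in FANKO, all FANKO samples above all WT samples. *Arntl* at ZT 10 was at 1.48, 2.06, 1.46 and 1.41 CPM in WT and at 2.02, 3.25, 5.01 and 3.796 in FANKO, where 1 FANKO sample lay below the highest WT sample. *Npas2* at ZT 10 rested on 5 to 7 counts in WT and 10 to 41 in FANKO, without overlap in CPM. All 3 passed, with log2 differences of 0.49 ± 0.09 for *Clock* (adjusted p = 4.17e-05), 1.11 ± 0.33 for *Arntl* (0.00600) and 1.92 ± 0.51 for *Npas2* (0.00227). With library size alone none of the 3 passed (adjusted p = 0.286, 0.0587 and 0.0124). Without replicate 2 or 3 the *Arntl* difference did not pass (adjusted p = 0.0203 and 0.164), and without replicate 2, 3 or 4 that of *Npas2* did not (0.0104 to 0.0486).

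*Nr1d2* differed in eWAT at its own low point, ZT 22. The WT samples held 7.74, 7.02, 9.50 and 14.0 CPM and the FANKO samples 18.4, 15.9, 23.2 and 18.1, without overlap (log2 0.99 ± 0.25, adjusted p = 0.00164). This call was lost without replicate 1, 2 or 3 (adjusted p = 0.0131 to 0.0420) and with library size alone (0.0185). *Nr1d1* at the same time was at 3.99, 3.74, 2.48 and 5.13 CPM in WT and at 8.76, 6.31, 7.32 and 5.47 in FANKO, also without overlap, and missed the threshold (0.88 ± 0.29, adjusted p = 0.0174). In all, 4 of 24 differences passed in eWAT: 0 of 6 genes (ZT 6), 3 (ZT 10), 0 (ZT 18) and 1 (ZT 22), against 27%, 24.5%, 13.6% and 20.6% of all genes. All 4 were higher in FANKO, where 16.9%, 16%, 8.54% and 12.6% of all genes were higher and 10.1%, 8.46%, 5.1% and 8.02% lower. With library size alone none of these 4 passed, and the 1 difference that did was *Nr1d1* at ZT 10, lower in FANKO (log2 -0.81, adjusted p = 0.00637). At ZT 6 and ZT 18 0 of the 6 genes reached an unadjusted p of 0.05 in edgeR, and DESeq2 called 0. Genotypes did not overlap for 0, 2, 0 and 2 of the 6 genes, against 35.6%, 37.9%, 21.7% and 29.3%.

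The mean level over the day differed for 0 of the 6 genes in eWAT, against 50.3% of all genes (27.6% higher and 22.8% lower), with edgeR and with DESeq2, although 2 had an unadjusted p below 0.05. The log2 differences were 0.44 ± 0.21 for *Npas2* (adjusted p = 0.0592), 0.26 ± 0.12 for *Nr1d2* (0.0637), 0.26 ± 0.16 for *Arntl* (0.166) and 0.08 ± 0.05 for *Clock* (0.165), and those of *Nr1d1* and *Rora* were 0.03 ± 0.13 and 0.02 ± 0.07. In BAT *Arntl* (0.40 ± 0.17, adjusted p = 0.0355) and *Npas2* (0.49 ± 0.25, 0.0740) did not pass, nor did *Nr1d1* (0.11 ± 0.13, 0.446), *Nr1d2* (0.00 ± 0.11) or *Rora* (-0.05 ± 0.07, 0.504).

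Whether the genotype effect differed between the depots was tested directly. For the mean level it did for *Clock*, by a log2 difference of -0.48 ± 0.07 (BAT minus eWAT, adjusted p = 2.14e-08), 1 of 6 genes against 64.3% of all genes (32.2% with a higher effect in BAT and 32.1% with a lower one). This value also turned with library size alone, to 0.34, while the median of all genes moved to 0.88. For the rhythm 0 of 6 genes passed with edgeR, against 2.09% of all genes. An unadjusted p below 0.05 was reached by 3, and DESeq2 called 2. The smallest adjusted p values were those of *Rora* (0.0135) and *Arntl* (0.0205). *Rora* passed without WT eWAT ZT 18 replicate 4 (0.000368) and without FANKO BAT ZT 6 replicate 1 (0.00545).

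*Arntl* in WT eWAT was the 1 case, of 24 combinations of gene, depot and genotype, that departed from a cosine. The mean of ZT 6 and ZT 18 exceeded that of ZT 10 and ZT 22 by 1.03 ± 0.19 on the log2 scale (adjusted p = 0.00120), against 0.499% of all genes in that group (0.474% in this direction and 0.0247% in the other). Its samples at ZT 6 (7.99, 8.24, 9.83 and 16.4 CPM) stood well above those at ZT 10 (1.41 to 2.06), 4 h later. The departure was not called without replicate 1, 2 or 3 (adjusted p = 0.0159, 0.0738 and 0.0131). In the same contrast *Arntl* had 0.68 ± 0.18 in FANKO eWAT, 0.46 ± 0.20 in WT BAT and 0.07 ± 0.17 in FANKO BAT, none of which passed. In WT BAT, FANKO BAT and FANKO eWAT edgeR and DESeq2 called 0 of the 6 genes, with 1, 0 and 1 at an unadjusted p below 0.05, where 0.00988%, 0% and 0% of all genes were called.

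Pairs of the 6 genes were also compared among samples taken at the same time. Within WT BAT, FANKO BAT, WT eWAT and FANKO eWAT the log2 CPM of the 16 samples was centred on the time-point means, and the 15 pairs of genes were correlated, 60 relations in all, with permutation within time points. Only *Arntl* with *Nr1d2* in WT eWAT passed (Pearson r = -0.87, permutation p = 0.00011, adjusted p = 0.0066), with a Spearman rho of -0.78 (permutation p = 0.00041, adjusted p = 0.0246). Samples with less *Arntl* than others of their time had more *Nr1d2*. Without the 2 samples whose *Arntl* deviation lay farthest from the median, a choice added after the data were seen, r was -0.79 (permutation p = 0.00173) and the pair did not pass (adjusted p = 0.104), so the call rests on those samples. Leaving out the 2 samples farthest from the median by *Arntl* level instead, r was -0.87 (permutation p = 0.00025). Without the library of WT eWAT ZT 18 replicate 4, which held 15.3 CPM of *Arntl* and 52.7 of *Nr1d2* where the others held 32.7 to 43.2 and 17.3 to 28.3, it was -0.70. No pair passed when any replicate number was left out, which leaves 12 samples. For the same pair r was -0.46 in WT BAT (permutation p = 0.00264, adjusted p = 0.0528), with a rho of -0.62 (permutation p = 0.00326, adjusted p = 0.0810). In FANKO BAT r was -0.77 (permutation p = 0.0205, adjusted p = 0.102) and rho -0.56 (permutation p = 0.0470, adjusted p = 0.153). In FANKO eWAT r was -0.36 (permutation p = 0.0151, adjusted p = 0.102) and rho -0.59 (permutation p = 0.0132, adjusted p = 0.0991). Whether r differed between the 4 combinations was not tested. In FANKO BAT r was -0.36 without FANKO BAT ZT 6 replicate 1, which held 22.5 CPM of *Arntl* and 43.3 of *Nr1d2*.

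**Figure D4:**
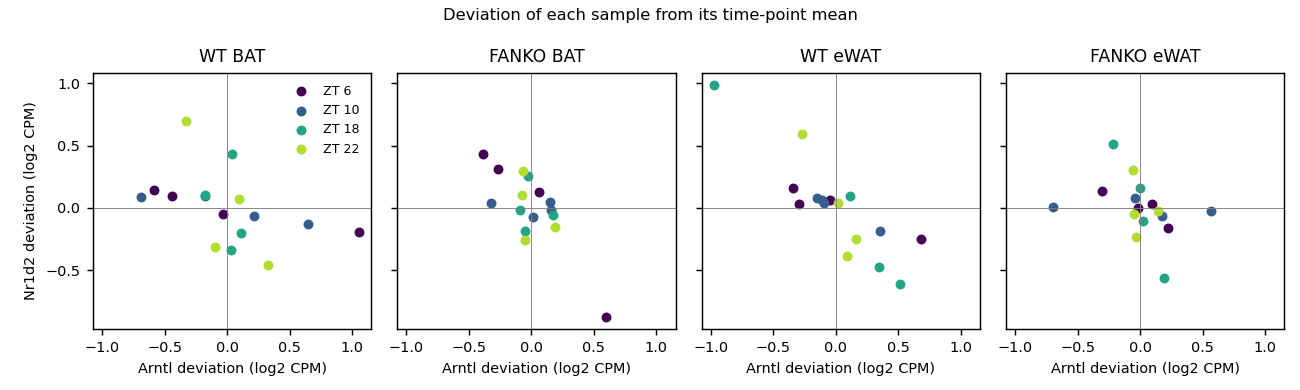
Deviation of *Nr1d2* (vertical axis) against that of *Arntl* (horizontal axis), each in log2 CPM from the mean of the sample's time point, in 4 panels for WT BAT, FANKO BAT, WT eWAT and FANKO eWAT, with points coloured by time. In WT eWAT the points run from the upper left to the lower right (r = -0.87), and the point at the far upper left is the ZT 18 library that stands apart.

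Ratios of genes within a sample cancel the scaling of the library, apart from the prior count. Of 8 comparisons of log2 ratios between genotypes, 4 ratios in each depot, only *Npas2* to *Clock* in BAT passed an adjusted p of 0.05. It was higher in FANKO by 0.96 (permutation p = 0.0060, adjusted p = 0.0480), at a mean of -6.45 in FANKO and -7.42 in WT over 16 samples each. The difference came at ZT 6 (-6.35 against -7.92) and ZT 10 (-7.03 against -9.19), when WT *Npas2* is lowest. It was not called with a prior count of 0.5, nor without replicate 1, 2 or 4, nor without the 3 libraries that stand apart. The ratio of *Arntl* to *Nr1d1* did not pass for its mean in BAT (0.39 higher in FANKO, permutation p = 0.343, adjusted p = 0.458), but over the day its time-point means spanned 6.44 log2 units in WT BAT and 2.60 in FANKO BAT. In eWAT that span was 8.85 and 6.60.

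Across all 64 samples, centred within each depot and genotype, each gene of the loop was compared with 12811 genes with a mean log2 CPM of at least 1. These correlations share libraries and the 4 time points and are given as a description. *Arntl* was most like *Leo1* (r = 0.89), *Dapk1* (0.88) and *Dtx4* (0.87) and most opposed to *Ciart* (-0.92), *Nr1d2* (-0.92) and *Dbp* (-0.91). *Nr1d2* was most like *Dbp* (0.94), *Per3* (0.93) and *Ciart* (0.89), and most opposed to *Leo1* (-0.92), *Arntl* (-0.92) and *Dennd4a* (-0.88). *Clock* was nearest to *Arntl* (0.84), *Dtx4* (0.81) and *Sh3pxd2a* (0.80), and farthest from *Pdcd4* (-0.79), *Dbp* (-0.78) and *Per3* (-0.76). *Npas2* (12812 genes) was nearest to *Dtx4* (0.91), *Grk5* (0.83) and *Arntl* (0.83), and farthest from *Tef* (-0.87), *Por* (-0.84) and *Nrg4* (-0.82). *Nr1d1* was nearest to *Ap5s1* (0.85), *Snx33* (0.84) and *Tns2* (0.84), and farthest from *Nfil3* (-0.91), a repressor that opposes the D-box activators, *Ppp1r3b* (-0.87) and *Lonrf3* (-0.87). *Rora* stood apart from the rest: its nearest genes were *S1pr1* (0.74), *Klf9* (0.73) and *Foxo3* (0.72), and its farthest *Tsr1* (-0.73), *Pcdh12* (-0.69) and *Mettl1* (-0.68), and its r with the other 5 genes of the loop lay between -0.46 and 0.53.

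The other genes around the loop were counted by list. Of 12 further clock genes, among them the *Per* and *Cry* repressors and the D-box factors, the rhythm differed between genotypes for 3 in BAT: *Cry1* (adjusted p = 1.09e-05), *Dbp* (0.000103) and *Nfil3* (0.000556). In eWAT it differed for 1 of the 12, *Dbp* (4.45e-06), with *Hlf* (0.0438) and *Bhlhe41* (0.0633) next. Their mean level rose for 2 and fell for 5 in FANKO BAT, and rose for 5 and fell for 2 in FANKO eWAT, in comparisons that called 67% of all genes in BAT (33.1% higher and 33.9% lower) and 50.3% in eWAT (27.6% higher and 22.8% lower). The paralogs *Arntl2* and *Rorb* both fell in level in FANKO BAT, by 0.78 and 1.25 on the log2 scale, and neither passed the test of the rhythm in either depot (no unadjusted p below 0.05, 0 calls with DESeq2). Among 11 cofactors and regulators of these proteins, such as the corepressor genes *Ncor1* and *Hdac3*, the rhythm differed for 0 in either depot with edgeR and DESeq2, where 3 in BAT and 0 in eWAT had an unadjusted p below 0.05. In mean level 4 of the 11 rose and 3 fell in FANKO BAT, against 33.1% of all genes higher and 33.9% lower, and among those that fell was *Hdac3* (-0.84 ± 0.04, adjusted p = 1.08e-26).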

How the data were processed

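Total RNA was sequenced in 64 samples, grouped by their labels. The authors removed ribosomal RNA and read stranded libraries in pairs of 38 bp. Their alignment used STAR 2.5.3a and GRCm38.p5 and their gene counts featureCounts 1.5.3, per the submitters' processing notes. The deposited values are whole-number counts per gene, with no normalization. Strand and multi-mapping options are not given in the sources used here.

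Counts were analysed in R 4.3.3 with edgeR 4.0.16: filterByExpr (minimum count 10, minimum total 15), TMM factors, and quasi-likelihood fits of the whole table, in which each depot and genotype had its own mean and cosine terms (period 24 h), or with 16 group means for single time points and departures from a cosine. P values were adjusted by Benjamini-Hochberg over 20249 genes and set against an FDR of 0.01, as in the study. CPM used TMM-scaled library sizes, log2 CPM a prior count of 2, and RPKM exonic lengths from GENCODE M21, which gave a symbol for 52403 of 52636 identifiers. Cosine amplitudes, peaks and their errors came from ordinary least squares on log2 CPM. Correlations and ratios used 100000 permutations within time points, two-sided, in Python 3.11.15 with scipy 1.17.1. The fits were tested on simulated counts.

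The 6 genes and all lists were chosen with earlier results of these data known. Named in the text are the 6 genes in every comparison, the 3 genes of the lists around the loop with the smallest p in each test of the rhythm difference between genotypes, and the 3 genes most and least correlated with each of the 6. *Arntl2*, *Rorb*, *Hdac3* and *Ncor1* were named after their values were seen. Alternatives were DESeq2 1.42.0, RLE factors, library size alone, 2 other filters, a replicate block, separate fits for each depot, unordered times, a threshold of 0.05 and leaving out replicates. Leaving out the 3 libraries that stand apart, and the 2 samples of extreme deviation in the correlations, was added after the data had been seen. Totals of 6117343 to 30544847 counts set the precision, which is poorest for *Npas2*. No 2 libraries held identical values.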

Additional observations from a re-analysis of the deposited data

Results flagged for a closer look

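In groups of 4, a sample was set aside for a closer look when its gap to the nearest other sample exceeded Dixon's 95% limit for the range of the group. Of 96 sets of 4 samples (6 genes in 16 groups), 5 passed this limit, where chance gives about 1 in 20. In FANKO eWAT at ZT 22, replicate 1 was the highest for *Clock* (log2 CPM 7.72, nearest other 7.41) and for *Arntl* (5.71, nearest 5.54). In FANKO BAT at ZT 22, replicate 2 was the highest for *Arntl* (4.78, nearest 4.54). In WT eWAT at ZT 10, replicate 2 was the highest for *Arntl* (1.13, nearest 0.68) and the lowest for *Nr1d2* (7.13, nearest 7.35). The 3 libraries that stand apart were not among the samples that passed this limit. The effect of genotype on the mean level of *Clock* differed between the depots, by -0.48 on the log2 scale (BAT minus eWAT), in an interaction test, and was 0.34 with library size alone.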

How the results depend on the processing

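Most counts and values kept their direction and their side of the threshold, and the cause of the exceptions was not tested beyond the construction of each alternative. The number of the 6 genes whose rhythm differed between genotypes in BAT was 5, but 6 with DESeq2, 1 with library size alone, 3 with time point as a factor and 2 with separate fits for each depot, and in eWAT it was 1, but 0 with library size alone. For the mean level in BAT the count was 1, but 2 at an FDR of 0.05, 2 with DESeq2, 5 with library size alone, 2 with time point as a factor and 2 with separate fits. At single time points 10 differences passed in BAT, but 16 at an FDR of 0.05, and 4 in eWAT, but with library size alone 1 that was none of these, *Nr1d1* at ZT 10, lower in FANKO. The genotype effect on the mean level differed between depots for 1 gene, but for 5 with library size alone, and that on the rhythm for 0, but for 2 at an FDR of 0.05, 2 with DESeq2, 1 with the filter at a mean log2 CPM of 1 and 1 with time point as a factor. For both mean-level counts of 5 with library size alone, that scaling also moved the median of all genes upwards. The share of all genes whose mean level was called with it is not given. The departure from a cosine was called for 1 gene and for 0 with separate fits. Correlated pairs numbered 1, but 3 with library size alone, 0 without the 2 samples of extreme deviation (chosen after seeing the data) and 2 without the 3 libraries that stand apart. The ratio called passed in 0 cases with a prior count of 0.5, at an adjusted p below 0.01 and without those libraries. Peak-to-trough amplitudes were also taken with a prior count of 0.5 and as the range of the time-point means. With these choices 7 values moved by more than the SE of the amplitude.

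Either 1 replicate number or 1 of the 3 libraries that stand apart was left out. This gave 1 to 5 genes for the rhythm difference in BAT and 0 to 1 in eWAT, and 1 to 2 for the mean level in BAT and 0 to 1 in eWAT. At single times it gave 8 to 12 differences in BAT and 1 to 4 in eWAT. It gave 2 to 4 genes rhythmic in FANKO BAT, 0 to 1 for the rhythm effect between depots, 2 to 4 for the level and 1 to 2 for the rhythm between WT depots, and 0 to 1 departures from a cosine. The upper ends for the rhythm difference in BAT and for FANKO BAT came from leaving out 1 library. Without a replicate number those counts were lower, as given above. Without a replicate number there were 0 pairs and 0 to 1 ratios. All these fits have fewer samples.

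Signs turned for differences in mean level, FANKO minus WT, on the log2 scale. With library size alone *Clock* was at 0.18 in BAT and -0.16 in eWAT, *Rora* at 0.52 and -0.23, and *Nr1d1* in eWAT at -0.22, and the *Clock* effect between depots was 0.34. With no filter *Nr1d2* in BAT was at -0.0010, *Nr1d1* in eWAT at -0.011 and *Rora* in eWAT at -0.022. With the filter at a mean log2 CPM of 1, *Clock*, *Nr1d1* and *Rora* in eWAT were at -0.0090, -0.063 and -0.072. In eWAT *Nr1d1* and *Rora* were at -0.029 and -0.040 with DESeq2 and at -0.032 and -0.040 with RLE factors. Without single replicates *Nr1d2* in BAT ranged from -0.030 to 0.083, *Rora* in BAT from -0.10 to 0.026, *Nr1d1* in eWAT from -0.084 to 0.17 and *Rora* in eWAT from -0.051 to 0.11.

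With the replicate number as a block, 5 genes differed in rhythm in BAT and 1 in eWAT, 11 and 3 differences passed at single times, 5 pairs correlated and 0 ratios passed. Equal numbers were not taken to pair samples in the main tests, because the labels name no animals. The deviations of same-numbered WT and FANKO samples correlated above 0.1 in 8 of 16 pairs in BAT and 9 of 16 in eWAT. In each depot 10 of 16 correlated best with their own number. Between same-numbered BAT and eWAT samples 11 of 16 in WT and 7 of 16 in FANKO lay above 0.1, and 11 and 8 correlated best with their own number. All these counts of best matches lie above an even share among the 4 numbers of a group. Samples of equal number may therefore be linked, and the main tests leave such a link out. The labels do not say whether same-numbered BAT and eWAT samples share a mouse, and the depots were treated as independent. Depth limits *Npas2* most.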
